A study of Mus musculus with 6 samples.

Results

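Oxidative phosphorylation subunits are the nuclear-encoded proteins of the 4 respiratory chain complexes and of the ATP synthase, counted here as complex V. Members were taken as the probe sets whose sole gene symbol on the array platform begins with Nduf (followed by a, b, c, s or v and a number), Uqcr, Atp5 or Cox4 to Cox8 with a letter, or is Sdha, Sdhb, Sdhc or Sdhd. Each gene was read from its probe set with the highest mean over the 6 arrays. This gave 81 genes, read by 164 probe sets, among 18193 genes with a probe set of their own on the array. Of these members, 71 were among the 10855 genes tested, and the other 10 stayed at low values. Complex I had 35 members (32 tested), complex II 4 (4 tested), complex III 8 (8 tested), complex IV 17 (10 tested) and complex V 17 (17 tested). The rule uses gene symbols and no measured difference, and it was written with earlier results of these data known.

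The respiratory chain sits in the inner mitochondrial membrane. Complexes I and II pass electrons from NADH and succinate to ubiquinone, complex III passes them on to cytochrome c and complex IV to oxygen, and complexes I, III and IV pump protons that drive the ATP synthase. Skeletal muscle fibres are rich in these complexes and make muscle forms of several complex IV subunits, while quiescent satellite cells hold few mitochondria. Some subunits of complexes I, III, IV and V are encoded in mitochondrial DNA and are not matched by these symbols.

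The study compared PICs with satellite cells, both taken from the hindlimb muscles of C57 black 6 mice, 7 to 9 days of age, after enzymatic digestion and a flow cytometry sort on CD34 and Sca1. PICs are PW1-expressing cells of the muscle interstitium, and satellite cells are the muscle stem cells beneath the fibre's basal lamina. Each population had 3 one-colour arrays that the labels call biological replicates, numbered 1 to 3 in both. The labels give no genetic change or treatment in either population and do not say how many animals were pooled. All values below are log2 of the deposited GCRMA intensity, and each difference is PICs minus satellite cells. Different probe sets are not on a common scale, so levels are compared between arrays and never between genes.

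The populations were checked against marker lists. All 10 myogenic progenitor markers, Pax7 and Myod1 among them, passed the test as lower in PICs (28.6% of all genes tested). All 8 fibro-adipogenic markers that reached the filter in both populations, Pdgfra among them, passed as higher (27.6% of all genes tested). The fibro-adipogenic list as drawn up includes Ly6a, which encodes the sort marker Sca1, so that gene is no independent check. Over the genes tested, arrays correlated at 0.96 to 0.99 within a population (6 pairs) and at 0.80 to 0.85 between populations (9 pairs). Haematopoietic marker signal was highest on both arrays numbered 1 (summed intensity 2698 on PICs 1 and 3613 on satellite 1, against no more than 352 on the other 4 arrays), and no tested marker of that list passed the test. Endothelial markers summed to 2403 to 8234 on PIC arrays and 4300 to 6070 on satellite arrays, with 0 of 10 passing. Haematopoietic signal thus went with the replicate number and not with the population, and its part in the subunit values was not tested.

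Subunits that passed the test were lower in PICs than in satellite cells in all 5 complexes. A gene passed when its adjusted p was under 0.05 (limma over all 10855 genes, two-sided, Benjamini-Hochberg). By that rule 45 of the 71 tested subunits were lower in PICs, where 28.6% of all genes tested were, and 0 were higher in PICs, where 27.6% of all genes tested were. In all, 63.4% of the subunits passed, against 56.3% of all genes, and all passing subunits lay in 1 direction. The median difference was -0.59, a 1.5-fold higher level in satellite cells, beside a median of -0.04 over all genes tested. The subunits ranged from -1.96 to 0.36, and the quartiles lay at -0.79 and -0.39. Fitted differences ran towards satellite cells for 65 of 71 subunits, against 52.1% of all genes.

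The differences were modest in size. A difference of at least 2-fold (1 on the log2 scale) together with the adjusted p was met by 6 subunits lower in PICs, where 13.0% of all genes tested met it, and by 0 higher in PICs, where 16.7% did. These were Cox7c, Atp5g2, Ndufs1, Ndufa10, Atp5b and Uqcrc1. The passing subunits spanned 1.28-fold to 3.90-fold. The arrays of the populations did not overlap for 49 subunits, all lower in PICs (33.2% of all genes in that direction), with 0 higher in PICs (31.3%), and overlapped for 22. In bulk RNA of sorted cells, fewer cells carrying a transcript and less of it in each cell cannot be told apart.

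**Figure D1:**
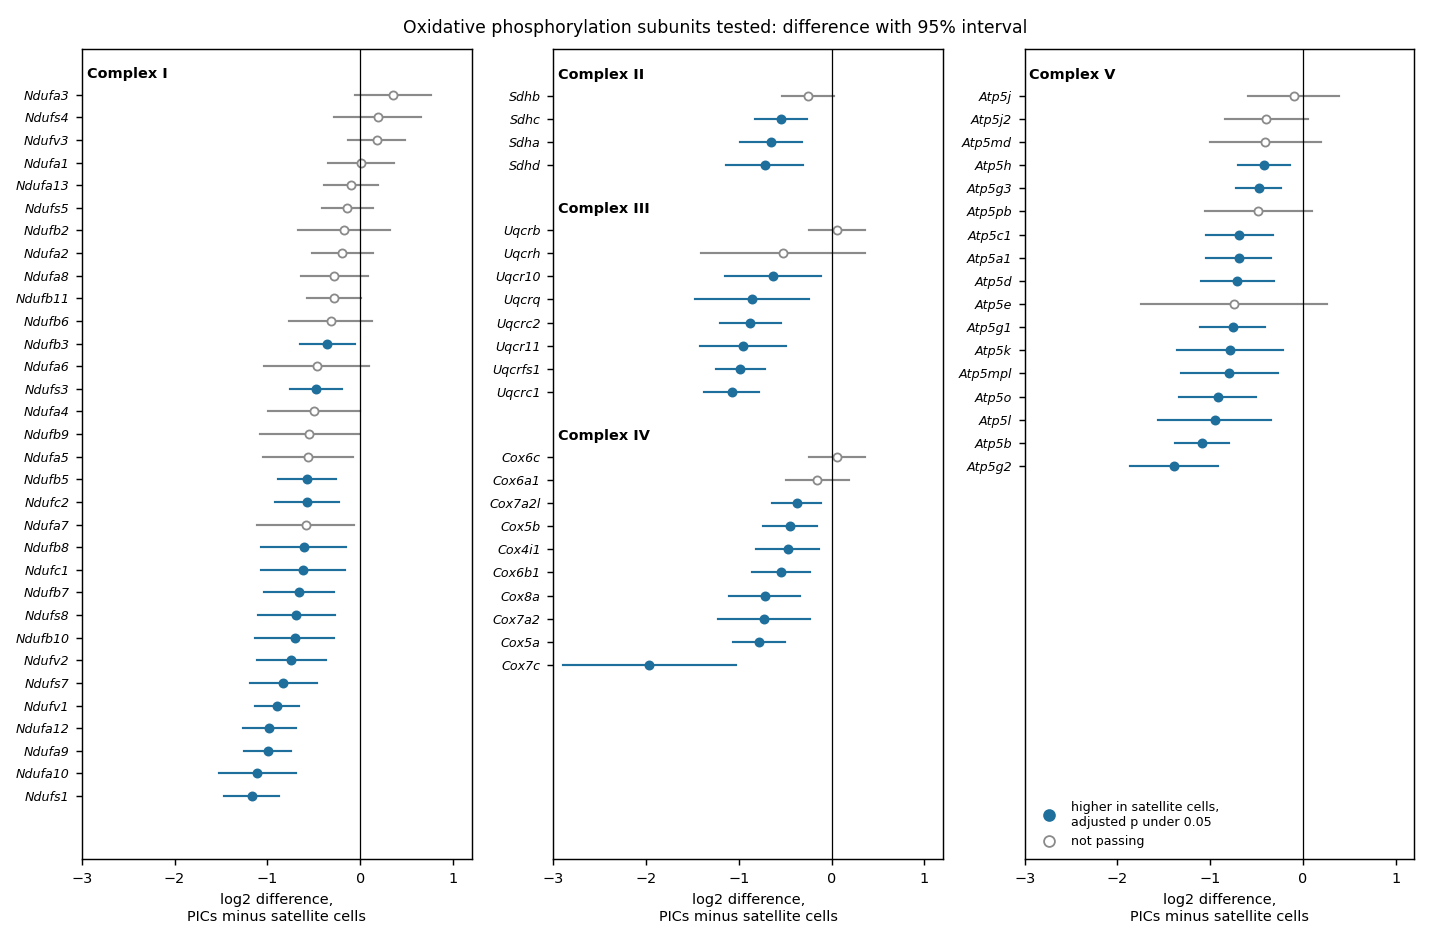
Log2 difference (PICs minus satellite cells, x axis) for each of the 71 tested subunits, grouped by complex, with points for the fitted difference and bars for its 95% interval. Filled points passed at an adjusted p under 0.05, and all 45 of them lie left of 0, from -1.96 (Cox7c) to -0.36 (Ndufb3).

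Array by array, the subunits stood lower on every PIC array than on any satellite array when summarised by their median. Taken as each gene's deviation from its own mean over the 6 arrays, the median over the 71 subunits was -0.24, -0.20 and -0.36 for PICs 1 to 3 and 0.48, 0.36 and 0.01 for satellite cells 1 to 3. Satellite replicate 3 thus lay nearest to the PICs. Between arrays of the same number the median difference was -0.76, -0.54 and -0.45 for numbers 1, 2 and 3. Over all genes tested it was -0.05, -0.01 and -0.01. The satellite array was the higher in 68, 66 and 63 of 71 subunits, against 52.5%, 50.4% and 50.4% of all genes tested. All 3 numbers gave the higher value in satellite cells for 63 subunits (41.6% of all genes tested) and the higher value in PICs for 3, Ndufa3, Ndufs4 and Uqcrb (39.2% of all genes tested). Without satellite replicate 3, 15 subunits met the 2-fold rule (13.2% of all genes) instead of 6. Without both arrays of replicate 1 the passing count was 21 (20.5% of all genes), without both of replicate 2 it was 12 (14.0%) and without both of replicate 3 it was 56 (29.9%), each with 2 arrays per population.

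**Figure D2:**
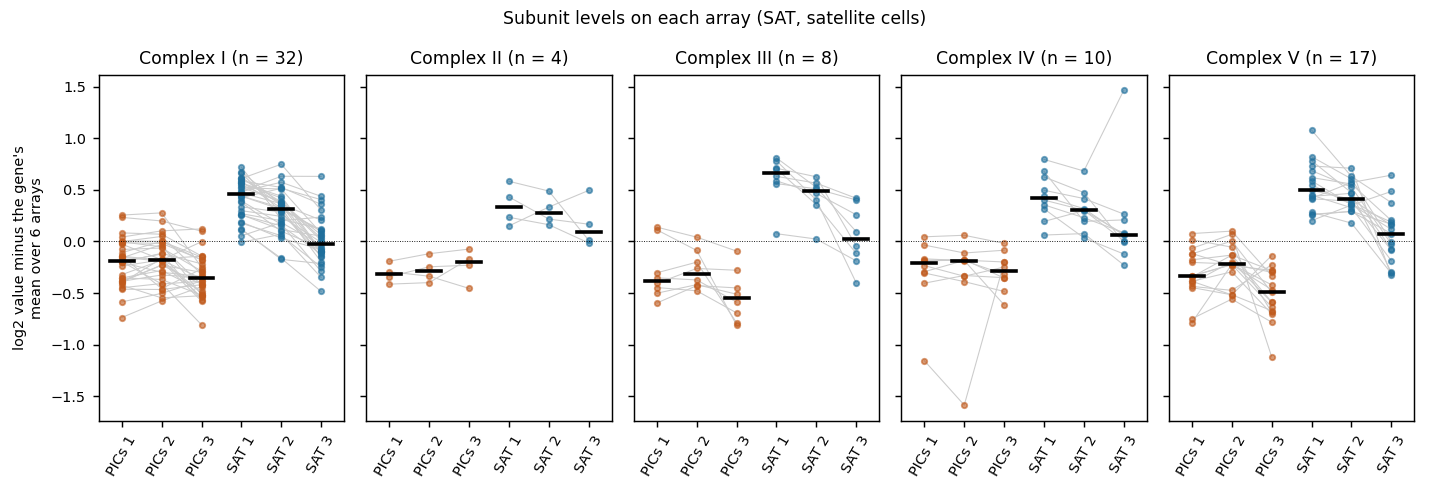
Each subunit's log2 value minus its own mean over the 6 arrays (y axis), by array (x axis; PICs 1 to 3, then satellite cells 1 to 3) and complex, with grey lines joining a gene's values within a population and black bars for the median. The medians over all 71 subunits are -0.24, -0.20 and -0.36 in PICs and 0.48, 0.36 and 0.01 in satellite cells.

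Complex I, the NADH dehydrogenase, had 16 of 32 tested subunits passing, all lower in PICs, where 28.6% of all genes tested passed. The median was -0.56, and the passing differences were -1.17 to -0.36. Ndufs1, which encodes the largest of its iron-sulfur core subunits, read 9.94, 10.10 and 10.24 in PICs and 11.17, 11.31 and 11.31 in satellite cells. The arrays did not overlap, and the difference was -1.17 (95% interval -1.46 to -0.87, adjusted p = 0.000391). Ndufa9, an accessory subunit that helps hold the peripheral arm to the membrane arm, read 10.46, 10.34 and 10.36 in PICs and 11.37, 11.46 and 11.33 in satellite cells. Its difference of -0.998 (interval -1.25 to -0.75, adjusted p = 0.000379) lay just under the 2-fold mark. Ndufa10, an accessory subunit of the membrane arm, read 10.68, 10.72 and 10.32 in PICs and 11.73, 11.87 and 11.43 in satellite cells, a difference of -1.11 (adjusted p = 0.00193). The third array of each population was the lowest for Ndufa10.

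Core and accessory subunits of complex I were set side by side in classes written after the values had been seen. The core subunits include those that carry the flavin and the iron-sulfur clusters that move electrons. All 6 tested core subunits (Ndufs1, Ndufs3, Ndufs7, Ndufs8, Ndufv1 and Ndufv2) passed as lower in PICs, with a median of -0.78. Of the 26 other subunits 10 passed as lower in PICs (38.5%), with a median of -0.48. Over all genes tested 28.6% passed in that direction. The difference between these classes was not tested. Ndufv1, the subunit that binds NADH, read 12.07, 12.06 and 12.11 in PICs and 12.95, 13.04 and 12.93 in satellite cells (difference -0.90, adjusted p = 0.000474).

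The 16 complex I subunits that did not pass ranged from -0.59 to 0.36. Of the 6 subunits of all complexes whose fitted difference ran towards PICs, 4 were in complex I, and they are named here because of their values. Ndufa3, an accessory subunit, read 12.51, 12.48 and 12.38 in PICs and 12.39, 12.11 and 11.79 in satellite cells. Its difference was 0.36 (interval -0.05 to 0.76, adjusted p = 0.119), and PICs 3 and satellite 1 overlapped. Ndufs4, an accessory subunit needed to complete the complex, differed by 0.19 (adjusted p = 0.44), Ndufv3, an accessory subunit of the NADH-binding module, by 0.18 (adjusted p = 0.275) and Ndufa1 by 0.01 (adjusted p = 0.966). With array weights, Ndufa3 (0.35, adjusted p = 0.0116) and Ndufv3 (0.23, adjusted p = 0.0312) passed as higher in PICs, as did 36.4% of all genes. The weights were 6.48 for PICs 2, 3.41 for satellite 2 and 0.27 to 0.65 for the other arrays. That fit thus rested mostly on the arrays numbered 2. Ndufa3 also passed without satellite replicate 1 (0.50, adjusted p = 0.0399).

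Complex II, succinate dehydrogenase, has 4 subunits and links the respiratory chain to the citric acid cycle. The PIC arrays lay below the satellite arrays for all 4 (33.2% of all genes tested), and 3 passed as lower in PICs (28.6%). Sdha, the flavoprotein that oxidises succinate, read 11.17, 11.19 and 11.42 in PICs and 11.74, 11.92 and 12.08 in satellite cells (difference -0.65, interval -0.99 to -0.32, adjusted p = 0.00728). Sdhc and Sdhd encode the membrane anchors where ubiquinone is reduced. Sdhc read 10.36, 10.45 and 10.47 in PICs and 11.13, 10.92 and 10.87 in satellite cells (difference -0.55, adjusted p = 0.00797), and Sdhd differed by -0.72 (adjusted p = 0.0121). Sdhb, the iron-sulfur subunit between them, read 11.20, 11.27 and 11.32 in PICs and 11.62, 11.55 and 11.38 in satellite cells. Its arrays did not overlap, yet its difference of -0.26 did not pass (adjusted p = 0.102).

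Complex III, the cytochrome bc1 complex, had a median of -0.87, with 6 of 8 subunits passing as lower in PICs (28.6% of all genes tested). Its 3 core members Uqcrc1, Uqcrc2 and Uqcrfs1 all passed, with a median of -0.98, and 3 of its 5 other members passed. As for complex I, these classes were written after the values had been seen, and their difference was not tested. Uqcrc1, a core protein on the matrix side, read 10.99, 10.95 and 10.74 in PICs and 12.06, 12.00 and 11.85 in satellite cells, a difference of -1.08 (interval -1.38 to -0.78, adjusted p = 0.000537). Uqcrfs1, the Rieske iron-sulfur protein, read 11.05, 11.22 and 11.20 in PICs and 12.21, 12.16 and 12.05 in satellite cells, a difference of -0.98 (interval -1.25 to -0.72, adjusted p = 0.000495). For both, every PIC array lay well below every satellite array. Uqcrb, which helps form the ubiquinone-binding part of the complex, read 14.01, 13.91 and 13.77 in PICs and 13.94, 13.89 and 13.68 in satellite cells. Its groups overlapped almost fully (difference 0.06, adjusted p = 0.719), and Uqcrh differed by -0.52 (adjusted p = 0.265).

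Complex IV, cytochrome c oxidase, had 8 of its 10 tested subunits passing as lower in PICs (28.6% of all genes tested), with a median of -0.51. Cox5a, a matrix-facing subunit, read 12.84, 12.76 and 12.66 in PICs and 13.65, 13.57 and 13.41 in satellite cells (difference -0.79, interval -1.07 to -0.51, adjusted p = 0.00155). Cox7c, a small membrane subunit, had the largest difference of all members, -1.96 (interval -2.90 to -1.03, adjusted p = 0.00544), on a probe set of low signal. It read 4.95, 4.52 and 5.91 in PICs and 6.91, 6.79 and 7.58 in satellite cells, so the third array was the highest in both populations. Cox6c (0.06, adjusted p = 0.716) and Cox6a1 (-0.15, adjusted p = 0.386) did not pass.

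Complex IV is also where muscle uses tissue forms, and its paralogs are given by whether their probe sets rose above the array's floor. The widely expressed forms were measured on every array. Cox4i1 read 13.08, 13.09 and 12.91 in PICs and 13.67, 13.57 and 13.28 in satellite cells (difference -0.48, adjusted p = 0.0273). Cox6b1 read 12.82, 12.71 and 12.80 in PICs and 13.49, 13.37 and 13.11 in satellite cells (difference -0.55, adjusted p = 0.0125). Neither gene's arrays overlapped, and satellite 3 was the nearest to the PICs for both. Cox7a2 read 12.31, 12.42 and 11.99 in PICs and 13.23, 13.08 and 12.59 in satellite cells (difference -0.73, adjusted p = 0.023). Cox8a read 7.04, 7.12 and 7.10 in PICs and 8.13, 7.64 and 7.66 in satellite cells (difference -0.72, adjusted p = 0.00848). Cox7a2l, known for its part in joining complexes III and IV, held the PICs closely together at 11.68, 11.68 and 11.66, against 12.06, 12.16 and 11.93 in satellite cells (difference -0.38, adjusted p = 0.0241). Cox6a1 was the exception among these forms: it read 13.32, 13.24 and 13.27 in PICs and 13.67, 13.39 and 13.23 in satellite cells, with satellite 3 below the PICs. The heart and skeletal muscle forms Cox6a2, Cox7a1 and Cox8b did not reach the filter. Cox6a2 read 3.32, 3.70 and 4.46 in PICs and 3.81, 3.70 and 3.32 in satellite cells, around the low value level of 4 (an intensity of 16). Cox7a1 read 3.58 on every PIC array and 3.00 to 3.58 on the satellite arrays, and Cox8b lay at 2.58 to 2.81 in PICs and 2.81 to 3.00 in satellite cells. All of these lay at or near the array's floor in both populations. Cox4i2, a form known from lung, and Cox7b2 and Cox8c, known from testis, were each at a single value on all 6 arrays, 2.32, 2.32 and 1.58. Cox6b2 read 3.70 to 4.39 in PICs and 4 to 4.32 in satellite cells. A probe set at the floor gives no measured level, and no fold is given for these genes.

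The remaining low members belong to complex I symbols. Ndufa4, now placed by biochemistry in complex IV, read 10.30, 10.15 and 9.78 in PICs and 10.80, 10.69 and 10.23 in satellite cells (difference -0.50, adjusted p = 0.0823). Its paralog Ndufa4l2, known as a hypoxia-induced gene, went the other way, reading 4.70, 4.91 and 3.91 in PICs and 3.32, 2.32 and 2.81 in satellite cells. All 3 satellite arrays and PICs 3 lay under 4, and by the PIC mean its level was at least 1.42-fold higher in PICs. It was left out by the filter, and in a fit with no filter it passed as higher in PICs (adjusted p = 0.041), as did 14.3% of all genes. That fit uses values under 4, which have little order, so it does not test a measured level. Ndufb1 (2.81 to 3.00 on all arrays) and Ndufb4 (2 on all arrays) lay at the floor on the probe set named for them alone.

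**Figure D3:**
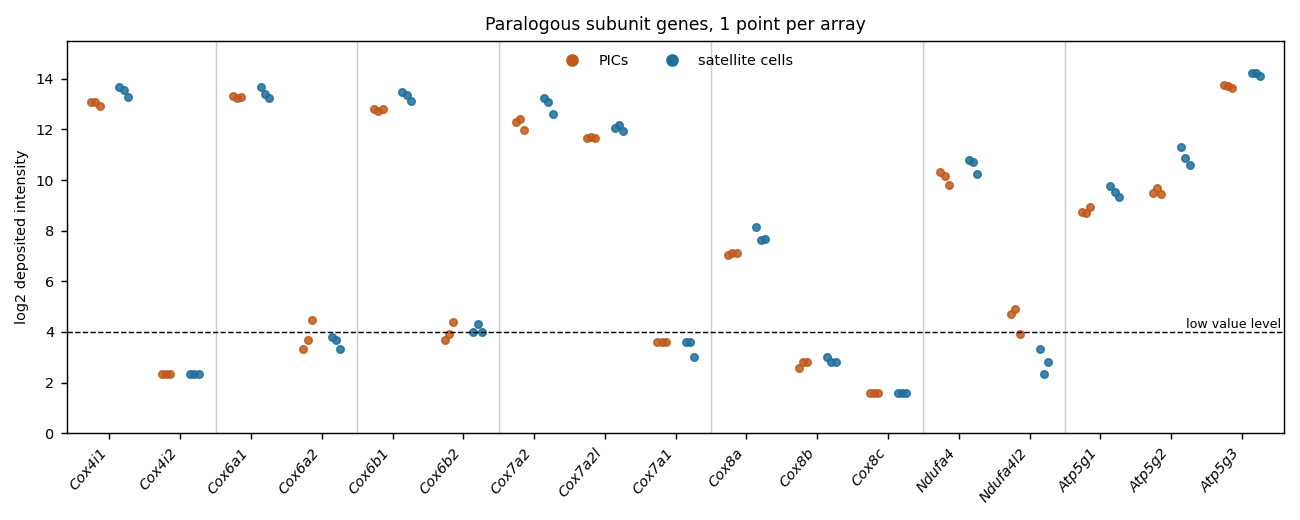
Log2 deposited intensity (y axis) of paralogous subunit genes (x axis), 1 point per array, PICs left and satellite cells right within each gene; the dashed line marks the low value level of 4. Cox4i2, Cox7a1, Cox8b and Cox8c lie under the line on every array in both populations, and Ndufa4l2 lies above it on 2 PIC arrays only. Heights are comparable within a gene and not between genes.

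Complex V, the ATP synthase, had every one of its 17 subunits fitted lower in PICs, where 52.1% of all genes tested were. Its median was -0.71, and 12 passed as lower in PICs (28.6% of all genes tested). In the catalytic F1 part 4 of 5 passed, in the peripheral stalk 2 of 4 and in the membrane part 6 of 8. These parts were also drawn up after the values had been seen and were not tested against each other. Atp5b, the catalytic beta subunit, read 13.36, 13.29 and 13.13 in PICs and 14.22, 14.37 and 14.45 in satellite cells (difference -1.09, interval -1.38 to -0.80, adjusted p = 0.000469). Atp5a1, its alpha partner, read 13.29, 13.16 and 13.54 in PICs and 13.88, 14.03 and 14.16 in satellite cells (difference -0.69, adjusted p = 0.00687). Neither gene's arrays overlapped. The c subunit of the rotor ring is encoded by 3 genes that yield the same mature protein, and all 3 were lower in PICs. Atp5g2 read 9.48, 9.67 and 9.45 in PICs and 11.31, 10.86 and 10.61 in satellite cells, a difference of -1.39 (interval -1.87 to -0.92, adjusted p = 0.00125). Atp5g1 read 8.72, 8.69 and 8.93 in PICs and 9.75, 9.52 and 9.35 in satellite cells, a difference of -0.76 (adjusted p = 0.00478). Atp5g3 read 13.75, 13.73 and 13.65 in PICs and 14.21, 14.24 and 14.12 in satellite cells, a difference of -0.48 (adjusted p = 0.00746). The 5 complex V members that did not pass (Atp5e, Atp5j, Atp5j2, Atp5md and Atp5pb) ranged from -0.74 to -0.10.

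A further 10 subunits did not pass in the fit without a block and passed when the replicate number was entered as one: Ndufa4, Ndufa5, Ndufa6, Ndufa7, Ndufb6, Ndufb9, Uqcrh, Atp5e, Atp5md and Atp5pb. With the replicate block 55 of 71 were lower in PICs (32.4% of all genes tested) and 0 were higher (31.0%), and no passing subunit was lost. Atp5e, the epsilon subunit of F1, read 10.60, 10.74 and 9.55 in PICs and 11.40, 11.38 and 10.34 in satellite cells. The third array of each population was lower by about the same amount, and the adjusted p was 0.173 without the block and 0.00305 with it. Uqcrh likewise read 12.19, 11.99 and 11.27 in PICs and 12.86, 12.48 and 11.68 in satellite cells (adjusted p = 0.265 without the block and 0.0115 with it).

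**Figure D4:**
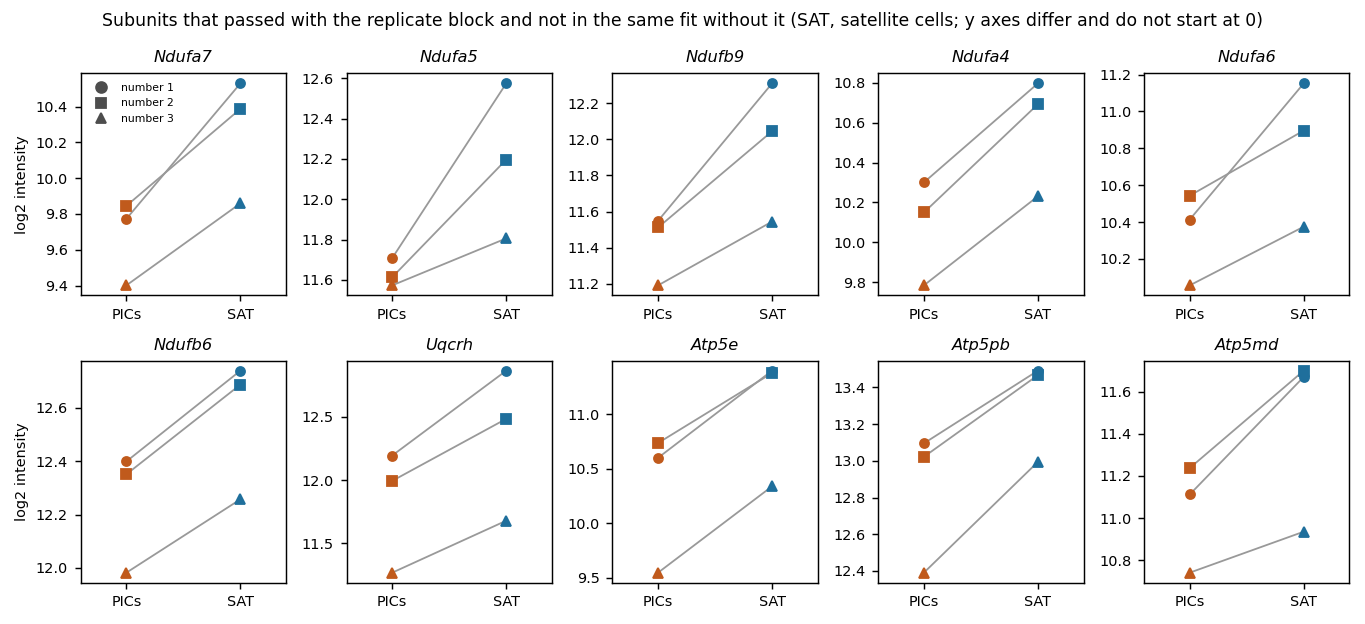
Log2 intensity (y axes, which differ between panels and do not start at 0) of the 10 subunits that passed with the replicate block and not in the same fit without it, PICs left and satellite cells right, with lines joining arrays of the same number. In each panel the 3 lines rise to the right, and number 3 (triangles) is the lowest in both populations.

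Most members were read by several probe sets. Of 132 member probe sets above the filter, 79 passed as lower in PICs and 0 as higher, where 26.4% and 23.6% of all 18433 probe sets of single genes did. Among the 41 genes with several such probe sets, 36 had all of them on 1 side of 0 and 5 had both signs: Atp5c1, Cox6c, Ndufs4, Uqcr10 and Uqcrb. No gene had probe sets passing in opposite directions. Atp5c1, the gamma subunit of F1, differed by -0.69 (adjusted p = 0.0079) on the probe set used and by 0.34 on its other one. Of the 71 probe sets used, 49 carry a suffix that marks possible reading of several transcripts or related genes, and many of these genes have processed pseudogenes. With those probe sets left out, 26 of 49 subunits passed as lower in PICs (27.4% of all genes tested).

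Known regulators bind the promoters of these genes, so the RefSeq windows from 250 bases before to 50 bases after each start (GRCm38.p6) were searched on both strands, with the motifs chosen after the results had been seen. A window was held for 60 of the 71 tested members. NRF1, a factor for nuclear genes of the respiratory chain, was searched as CGCATGCGC, the ETS factor GABP as CCGGAAG, YY1 as AAGATGGC, ERR receptors as AAGGTCA, CREB as TGACGTCA and the E-box of myogenic factors as CAGCTG. No matches of different motifs overlapped in the members' windows. Of the members' 65 windows (some genes have several), 7 held the NRF1 motif (10.8%, against 3.59% of the 11352 windows of all genes tested). The ETS motif was in 17 windows (26.2%, against 17.4%), YY1 in 9 (13.8%, against 4.5%), ERR in 7 (10.8%, against 2.96%), CREB in 3 (4.62%, against 2.94%) and the E-box in 5 (7.69%, against 15.4%). Passing members held the NRF1 motif in 5 of 38 genes and the others in 2 of 22, the ETS motif in 10 of 38 and 7 of 22, and YY1 in 4 of 38 and 5 of 22. These shares were not tested against each other. These are matches of letters and not binding sites.

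The NRF1 motif is nearly its own reverse complement, and in 4 of the 7 windows it matched both strands at once. These 4 are shown because they cover the range of responses, with Uqcrc1 (chr9:108936398-108936697, plus strand) and Atp5g2 (chr15:102670998-102671297, minus strand) past 2-fold, Atp5k (chr5:108434350-108434649, minus strand) passing at -0.79 and Cox6a1 (chr5:115348909-115349208, minus strand) not passing at -0.15. Each is given 5′ to 3′ along the gene, with capitals for the NRF1 motif (CGCATGCGC and its overlapping reverse complement) and, in Atp5k and Cox6a1, the ETS motif on the opposite strand (CTTCCGG) and, in Atp5k, the ERR motif (AAGGTCA).
Uqcrc1: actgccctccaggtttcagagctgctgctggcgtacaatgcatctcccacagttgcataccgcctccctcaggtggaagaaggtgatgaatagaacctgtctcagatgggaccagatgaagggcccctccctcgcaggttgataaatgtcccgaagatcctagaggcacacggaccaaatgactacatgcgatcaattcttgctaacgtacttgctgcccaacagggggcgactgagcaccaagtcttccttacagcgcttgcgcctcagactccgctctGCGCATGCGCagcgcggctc
Atp5g2: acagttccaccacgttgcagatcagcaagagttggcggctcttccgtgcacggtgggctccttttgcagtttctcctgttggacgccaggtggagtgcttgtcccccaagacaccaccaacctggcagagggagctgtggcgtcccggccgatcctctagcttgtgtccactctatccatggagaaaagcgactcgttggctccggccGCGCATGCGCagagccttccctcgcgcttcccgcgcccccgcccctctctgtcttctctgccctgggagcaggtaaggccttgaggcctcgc
Atp5k: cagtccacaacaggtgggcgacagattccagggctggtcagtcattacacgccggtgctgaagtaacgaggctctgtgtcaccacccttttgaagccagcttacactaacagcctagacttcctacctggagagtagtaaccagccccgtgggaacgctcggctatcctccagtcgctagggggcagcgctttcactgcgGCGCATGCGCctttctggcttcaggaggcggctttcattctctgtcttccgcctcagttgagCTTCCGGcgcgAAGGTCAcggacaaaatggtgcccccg
Cox6a1: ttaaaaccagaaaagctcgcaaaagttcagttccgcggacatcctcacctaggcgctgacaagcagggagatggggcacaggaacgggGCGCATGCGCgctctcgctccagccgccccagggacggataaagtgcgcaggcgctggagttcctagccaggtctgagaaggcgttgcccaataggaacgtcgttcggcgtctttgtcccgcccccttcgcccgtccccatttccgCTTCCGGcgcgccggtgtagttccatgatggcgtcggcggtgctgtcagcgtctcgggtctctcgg
The NRF1 match began 42, 50 and 162 bases before the start in Atp5g2, Atp5k and Cox6a1, and 30 bases after it in Uqcrc1. Having the motif thus went with differences from -1.39 to -0.15 in these 4 genes.

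Regulators of mitochondrial gene expression were described with the genes that reached the filter in both populations. Of these 17, 10 passed as lower in PICs and 0 as higher (28.6% and 27.6% of all genes tested), with a median of -0.56. Polrmt, the mitochondrial RNA polymerase, differed by -1.03 (adjusted p = 0.00123). Among genes for factors whose motifs were searched, Nrf1 differed by -0.69 (adjusted p = 0.0137), Esrra, an ERR receptor, by -0.66 (adjusted p = 0.00638), and the GABP subunits Gabpb1 and Gabpa by -0.88 (adjusted p = 0.0118) and -0.39 (adjusted p = 0.0255). Yy1 differed by -0.31, with an adjusted p of 0.0626 without the replicate block and 0.0454 with it. The E-box factors Myod1 and Myf5 mark the satellite lineage and differed by -5.84 and -3.95. Ppargc1a, a coactivator of mitochondrial genes, differed by 0.11 and did not pass (adjusted p = 0.548). A further 2 regulators lay at or under 4 on all PIC arrays and passed the filter through the satellite arrays alone, so their values are given without a test. Ppargc1b, a relative of Ppargc1a, averaged 7.24 in satellite cells and was at least 9.44-fold lower in PICs. Esrrg, an ERR receptor, averaged 5.41 in satellite cells and was at least 2.66-fold lower in PICs.

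Among mobile carriers and other chain proteins 7 of 10 tested genes were lower in PICs and 0 higher, with a median of -0.69, where 28.6% and 27.6% of all genes tested passed in these directions. Cycs, cytochrome c itself, differed by -1.21 (adjusted p = 0.000225), Cyc1, the cytochrome c1 of complex III, by -1.22 (adjusted p = 0.000407) and Ndufab1, the acyl carrier protein held in complex I, by -1.22 (adjusted p = 0.000402). In ubiquinone synthesis 8 of 12 were lower in PICs and 0 higher (1 higher with the replicate block, Coq8b, at 0.56 with an adjusted p of 0.0175), with Coq8a at -2.46 (adjusted p = 0.00101), Coq3 at -1.42 (adjusted p = 0.000971) and Coq6 at -1.16 (adjusted p = 0.000481). Among membrane carriers and cristae proteins 7 of 11 were lower in PICs and 0 higher. Slc25a5, an ADP/ATP carrier, differed by -1.42 (adjusted p = 0.000169), Immt, a cristae organiser, by -1.05 (adjusted p = 0.000383) and Chchd3, its partner, by -0.86 (adjusted p = 0.00309). Slc25a4, the carrier form of heart and muscle, differed by -0.20 and did not pass (adjusted p = 0.191).

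Assembly factors, which build the complexes without staying in them, had 15 of 44 tested genes lower in PICs and 3 higher, and a median of -0.20. Over all genes tested 28.6% were lower in PICs and 27.6% higher, so the share lower in PICs was near that background. Lower in PICs were Lrpprc, which stabilises mitochondrial mRNA (-1.47, adjusted p = 0.000179), Cox10, an enzyme of heme a synthesis (-1.23, adjusted p = 0.000439), and Ndufaf6, a complex I assembly factor (-1.22, adjusted p = 0.00112). Higher in PICs were Ttc19 (0.75, adjusted p = 0.0251) and Uqcc3 (0.69, adjusted p = 0.00693), both of complex III assembly, and Sdhaf4 of complex II assembly (0.54, adjusted p = 0.0422), whose adjusted p was 0.0602 under the replicate block.

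Ribosomal proteins give a scale for these lists. Mitochondrial ribosomal proteins had 46 of 76 tested genes lower in PICs, 0 higher and a median of -0.59, next to 45 of 71 and -0.59 for the subunits. Cytosolic ribosomal proteins had 22 of 52 lower in PICs, 2 higher and a median of -0.33. Over all genes tested 28.6% were lower in PICs and 27.6% higher, with a median of -0.04. No test of the difference between lists was made.

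**Figure D5:**
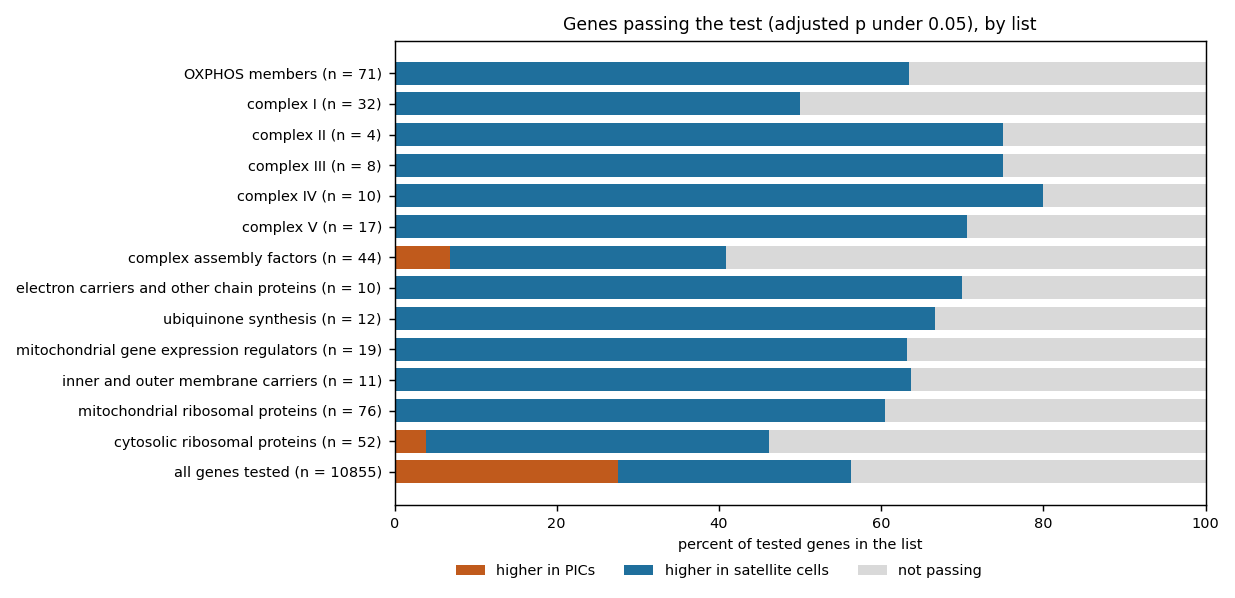
Percent of tested genes (x axis) passing as higher in PICs, passing as higher in satellite cells or not passing, for the subunits as a whole, each complex, related mitochondrial lists, ribosomal proteins and all genes tested, with the number tested beside each name (for regulators this includes Ppargc1b and Esrrg, kept through the satellite arrays alone). The subunits and the 5 complexes have no gene higher in PICs, whereas among all genes tested PICs were higher in 27.6% and satellite cells in 28.6%.

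Markers of other states moved with the same contrast. All 12 cell cycle transcripts that reached the filter in both populations were lower in PICs (median -1.76; 28.6% of all genes tested), and the summed intensity of the list was 17181 to 18851 on PIC arrays and 48092 to 58988 on satellite arrays. Their part in the subunit difference was not tested. Of 17 such muscle fibre transcripts, 8 were higher in PICs and 5 lower (27.6% and 28.6% of all genes tested). The summed intensity of that list was 7781, 8708 and 9200 on PICs 1 to 3 and 12592, 7945 and 5843 on satellite 1 to 3. Acta1 read 11.52 to 12.33 over all 6 arrays. Tnnc2, higher in PICs, read 10.57, 10.83 and 11.06 in PICs and 10.37, 7.86 and 7.29 in satellite cells. Other genes of the list went the other way. Atp2a1 read 6.27, 5.70 and 5.95 in PICs and 10.93, 10.65 and 9.80 in satellite cells. Myh1 read 5.91, 5.25 and 4.91 in PICs and 8.30, 8.12 and 8.19 in satellite cells. The part of fibre transcripts in the subunit values was not tested. The myoglobin gene Mb, the oxidative fibre myosins Myh2 and Myh7, and the sarcomeric mitochondrial creatine kinase Ckmt2 lay at or under 4 on all 6 arrays, as did Cox7a1 and Cox8b.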

How the data were processed

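Transcript levels were measured with 1 Affymetrix array per sample, from 200 ng of total RNA per the labels' protocols. The deposited values are intensity values made with GCRMA per the submitters' processing notes (a probe-sequence background model, quantile normalization and 1 summary value per probe set), whose version is not given in the sources used here. They are whole numbers on a linear scale, from 2 upwards, with an array median of 10. GCRMA draws unexpressed probe sets to a common floor and rounding makes its steps coarse, so low values have little order. Scanner files and scan dates were not used here, and scan batches were not tested. The precision is limited by 3 arrays per population, and an exact permutation test of 3 against 3 cannot go below p = 0.1.

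Probe sets were named from the platform annotation, and all 164 member probe sets matched a RefSeq gene number. Values were taken to log2. Probe sets above 4 on at least 3 of 6 arrays were kept whatever the population, and each gene was read from its kept probe set with the highest mean. Differences were fitted with limma 3.58.1 (lmFit and eBayes, no trend, no block) in R 4.3.3 over 10855 genes with Benjamini-Hochberg adjustment, after a check on simulated data. If no array of a population exceeded 4, the fold is a lower bound, the other population's mean minus 4 on the log2 scale.

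Both populations carry replicate numbers 1 to 3, and the labels do not say what a number shares. Deviations from the population mean correlated at 0.623, 0.222 and 0.579 between arrays of the same number, and at -0.568 to 0.0363 between others. Each gene's 3 deviations within a population cancel out, so positive values for the same number pull the others down. The contrast between them is therefore partly fixed by the centring. These correlations are across genes, which are not independent, and the pairing comes from the data.

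The members and gene lists were chosen with earlier results of these data known. The genes named with array values are those at 2-fold, the 2 with the lowest adjusted p per complex, the paralog sets, and up to 3 passing genes of largest difference per list and direction. Ndufv1, Atp5a1, Sdhb, Sdhd, Atp5e, Uqcrh, Uqcrb, Cox6c, the members fitted towards PICs, the probe set examples, the promoters shown and the further regulators, carriers and marker genes were named after their values were seen. Alternatives changed the filter, probe set, offset, variance model, array weights, normalization, block and arrays used.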

Additional observations from a re-analysis of the deposited data

How the results depend on the processing

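The count of subunits lower in PICs was 45 (28.6% of all genes tested). It lay between 12 and 56 over fits that left out arrays (14.0% to 29.9% of all genes), with 30 to 52 when 1 array was left out (21.9% to 28.8%). It was 12 without both arrays of replicate 2 (14.0% of all genes) and 21 without both of replicate 1 (20.5%). Without probe sets ending in _x_at, _s_at or _a_at it was 26 of 49 tested (27.4%). With the replicate block it was 55 (32.4% of all genes), which changed 10 calls, all gains. Among the related lists the block changed 11 calls, with 9 gained and 2 lost (Sdhaf4 and Twnk). The other alternatives (no filter, a stricter filter, the mean of a gene's probe sets, an offset before log2, trend and robust, array weights and quantile normalization) gave 35 to 59, the 35 with no filter, where 14.6% of all genes were lower in PICs, and the 59 with array weights, where 38.7% were. The count higher in PICs was 0 (27.6% of all genes tested). It became 1 with no filter, where 14.3% of all genes were higher. That gene was Ndufa4l2, on values partly at the floor, and it was also 1 at 2-fold, where 9.36% were. The count was 2 with array weights (Ndufa3 and Ndufv3), where 36.4% were, in a fit that gave most weight to the arrays numbered 2. When arrays were left out it was 0 to 1 (Ndufa3 without satellite replicate 1, where 24.8% were). The 2-fold count lower in PICs was 6 (13.0% of all genes), and 6 to 15 when arrays were left out (10.7% to 13.5%). It was 15 without satellite replicate 3 (13.2%) and 10 without both arrays of replicate 3 (13.4%). The median stayed between -0.76 and -0.48. Atp5c1 took the other sign, 0.34, when read from its other probe set (adjusted p = 0.109). Of the 45 passing subunits, 30 passed without each single array in turn. Under every alternative that tested them, 17 or 18 per gene, 12 passed. The matching shares of all passing genes are not given here. Fits without arrays of a number hold 2 arrays per population, and the cause of their lower counts beyond fewer samples was not tested.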

Other observations

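Probe sets whose annotation lists several symbols were kept out of the gene tests, and 9 of them list a subunit. After the filter 5 remained, and none passed in a fit of their own over 2173 such or unnamed probe sets. A probe set shared by Ndufb4 and its copies Ndufb4b and Ndufb4c read 10.89, 10.78 and 10.15 in PICs and 11.32, 11.11 and 10.56 in satellite cells (difference -0.39, adjusted p = 0.335), although the probe set named for Ndufb4 alone lay at the floor. The shared probe set of Ndufs6 and Ndufs6b read 11.29, 11.27 and 10.84 in PICs and 12.02, 11.86 and 11.34 in satellite cells (difference -0.61, adjusted p = 0.0937). The remaining differences were -0.31 for a second Ndufb4 probe set, -0.26 for Ndufs5 and -0.17 for Ndufa11, so all 5 ran in the direction of the named subunits without passing.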
